A study of Mus musculus with 96 samples.

Results

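The comparison described here is that of endothelial cells (ECs) from the hearts of mice at day 7 (D7) after myocardial infarction (MI) with ECs from hearts without MI (D0). Its members were chosen by their labels and comprise the 4 EC small RNA libraries of D7 and the 4 of D0, that is 8 of the 96 libraries in the series. The series holds 4 cell types, cardiomyocytes (CMs), ECs, fibroblasts (FBs) and hematopoietic cells (HCs), each sampled in 4 libraries at D0 and at D1, D3, D7, D14 and D28. All mice were inbred C57Bl/6J males of 12 to 14 weeks. At D7 the mice had undergone permanent ligation of the left anterior descending coronary artery, while D0 mice had no MI and were not operated on, so that the effects of surgery and of the infarct cannot be told apart. ECs were drawn from dissociated hearts with beads against CD144 (VE-cadherin, an adhesion protein of endothelial junctions), from cells that beads against CD45, a leukocyte surface protein, had left unbound. A library stands for a pool of 3 mice (2 where one sample was lacking), so the p-values below measure the spread between pools.

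A miRNA is cut as a duplex from a hairpin precursor, and either strand, named 5p or 3p after its arm, can be loaded into an Argonaute protein and pair through its seed (bases 2 to 8) with target mRNAs. In ECs the most prominent miRNA is miR-126a, which is encoded within the endothelial gene Egfl7 and is known for its role in vascular integrity and angiogenesis. The first week after an infarct is a phase of repair, in which new vessels grow, fibroblasts multiply and a scar forms.

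The 8 libraries held between 2105446 and 20465553 counts of mature miRNAs, with D0 and D7 overlapping in depth, and between 574 and 808 detected miRNAs. Of 1978 listed mature miRNAs, 421 passed the filter on low counts and were tested. Levels are given as CPM (counts scaled to a common library total) with library sizes scaled by TMM factors, which ranged from 0.870 to 0.988 at D0 and from 1.05 to 1.34 at D7. Scaled by library size alone, the median log2 change of the 421 miRNAs was 0.36, against -0.01 on the TMM scale, so a fall on the TMM scale is a fall relative to the median miRNA. The endothelial label was checked with both arms of miR-126a, which summed to 174749 to 215247 CPM (plain library size) in the D0 ECs and 186435 to 221263 in the D7 ECs, above the D0 and D7 libraries of FBs (20888 to 30916 and 21299 to 28277), HCs (54905 to 91837 and 16579 to 24856) and CMs (4423 to 9789 and 13060.3 to 22801). The EC libraries of D28 varied widely, with a summed let-7 level of 264714 to 686871 CPM against 197311 to 230102 at D0, and they share the estimate of the spread. Without them, further miRNAs passed, among them miR-26a-5p, miR-10a-5p, miR-10b-5p, miR-146a-5p, miR-27a-3p, miR-181a-5p and miR-30c-5p, all lower, so a miRNA described below as not passing is one that missed the threshold with those libraries in the fit.

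The sequences below are those of miRNAs on which the results turn, printed 5′ to 3′ from RefSeq (GRCm38.p6) with the seed in capitals. The first 4 belong to the imprinted Dlk1-Dio3 locus and were higher at D7, and no seed is shared between them.
miR-541-5p: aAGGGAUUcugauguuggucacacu
miR-127-3p: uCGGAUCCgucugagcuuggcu
miR-379-5p: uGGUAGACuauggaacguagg
miR-411-5p: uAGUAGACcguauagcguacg
The next 2 carry the same seed, although miR-34b-5p was higher at D7 and miR-34a-5p was not.
miR-34a-5p: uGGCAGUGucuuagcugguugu
miR-34b-5p: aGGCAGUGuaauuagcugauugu
Likewise 2 pairs with a common seed were lower at D7.
miR-30a-5p: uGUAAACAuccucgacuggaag
miR-30e-5p: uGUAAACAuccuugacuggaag
miR-141-3p: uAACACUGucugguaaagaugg
miR-200a-3p: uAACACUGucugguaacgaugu
The last 3 are the main fibroblast marker, the main injury-induced miRNA and the endothelial marker.
miR-199a-3p: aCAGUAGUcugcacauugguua
miR-21a-5p: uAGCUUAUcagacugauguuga
miR-126a-3p: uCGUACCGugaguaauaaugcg
On GRCm38, which is the mm10 build of the submitters' processing notes, miR-379-5p lies at chr12:109709065-109709085 and miR-541-5p at chr12:109742422-109742446, both on the plus strand. The gene of miR-34a-5p is on another chromosome (chr4:150068473-150068494) than that of miR-34b-5p (chr9:51103610-51103632).

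Between D0 and D7, 95 of 421 miRNAs (22.6%) changed in ECs at an adjusted p under 0.05 (edgeR quasi-likelihood test, Benjamini-Hochberg adjustment), 75 of them higher (17.8%) and 20 lower (4.75%). The rises were mostly of scarce miRNAs, with 62 of 75 at a mean under 100 CPM, whereas 10 of the 20 falls were at 100 CPM or more. D7 lay above every D0 library for 70 of the rises and below for 17 of the falls, while over all tested miRNAs the groups did not overlap for 32.8%. Scaled by library size alone, 97 rose and 5 fell. When the D28 libraries were left out of the fit, 146 changed, 92 higher and 54 lower. Because a miRNA could pass the filter through D7 alone, the rises were also counted among the 310 tested miRNAs that reached the filter's minimum of 2.79 CPM (plain library size) in every D0 library, and there 40 rose and 19 fell.

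**Figure D1:**
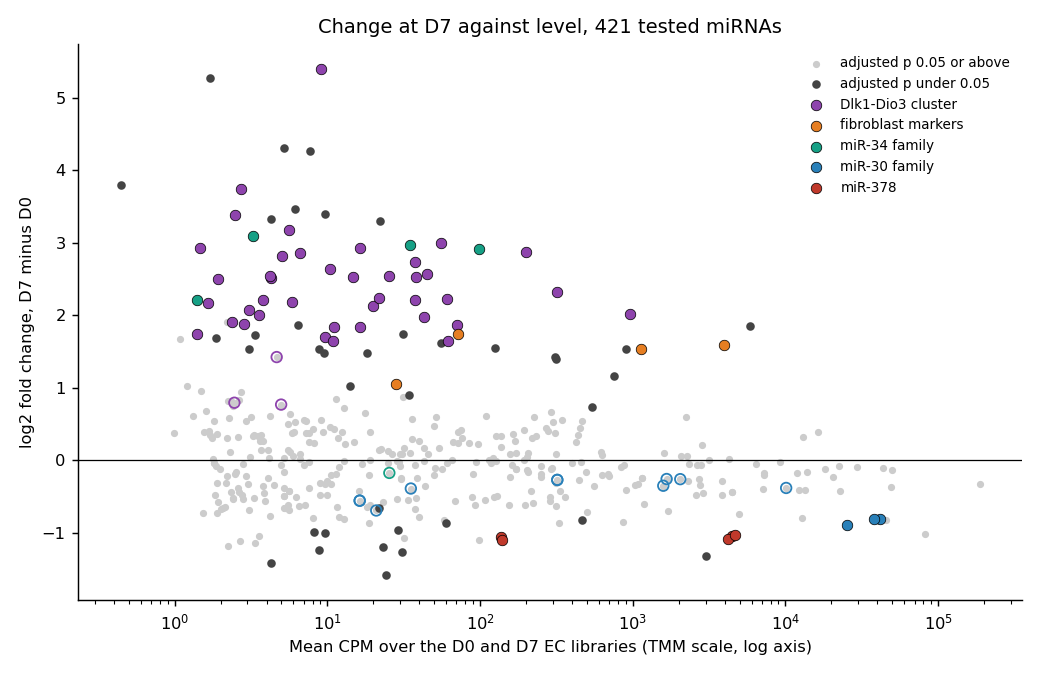
Change of each of the 421 tested miRNAs between D0 and D7 in ECs (log2 fold change, y axis) against its mean level in the 8 libraries (CPM on the TMM scale, log x axis), with filled points at an adjusted p under 0.05 and open coloured points at 0.05 or above. The Dlk1-Dio3 miRNAs (purple) lie between 0.77 and 5.39, and the falls at more than 1000 CPM are those of miR-30, miR-378 and miR-145a-5p.

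Of the 75 rises, 40 were of miRNAs from the Dlk1-Dio3 locus, an imprinted domain on chromosome 12 whose miRNAs are transcribed from the maternal chromosome with the long non-coding RNA Meg3. The locus held 42 of 92 rises without the D28 libraries, 42 of 97 under library size alone, and 20 of 40 among miRNAs at the minimum in every D0 library. Of 96 mature miRNAs listed for the locus, 20 had no count in the 8 libraries, 43 were tested, 40 rose and none fell. Among the 20 that reached 2.79 CPM in every D0 library all 20 rose, with log2 fold changes from 1.65 to 2.99, against 40 of 310 (12.9%) for all miRNAs that met the same condition. The median log2 change was 2.23 in these 20, and -0.07 in the 310. The 3 tested members that did not pass were miR-127-5p, miR-154-5p and miR-376c-3p.

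Summed over the locus, the level was 768, 709, 938 and 691 CPM in the 4 D0 libraries and 3054, 3376, 4844 and 3058 CPM in the 4 D7 libraries. Each D7 library was above each D0 library by more than 3 times. At its most abundant member, miR-127-3p, the D0 libraries held 398, 357, 462 and 299.8 CPM and the D7 libraries 1299, 1511, 1958 and 1397 CPM. Its log2 fold change was 2.02 ± 0.22 (SE, adjusted p = 7.88e-08). miR-127 is encoded antisense to the imprinted gene Rtl1, which it can silence.

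miR-379-5p, the first miRNA of the large 3′ cluster of the locus, stood at 89.4, 93.9, 136 and 107 CPM at D0 and 463, 482, 753 and 434 CPM at D7, with no overlap and a log2 fold change of 2.32 ± 0.30 (SE, adjusted p = 7.56e-07). For miR-541-5p, further along the same cluster, the D0 libraries were within 41.7 to 54.1 CPM and the D7 libraries within 285 to 487 CPM, and the log2 fold change was 2.87 ± 0.27 (SE, adjusted p = 5.66e-09). Neither miRNA overlapped between the groups. miR-134-5p, known from neurons where it restrains dendritic growth, rose from 9.22, 11.7, 16.6 and 10.9 CPM to 76.8, 86.8, 145 and 87.1 CPM, a log2 fold change of 2.99 ± 0.31 (SE, adjusted p = 3.91e-08). Further members with at least 10 CPM over the 8 libraries, miR-382-5p (2.53), miR-337-5p (2.56), miR-409-3p (2.73), miR-434-5p (2.23), miR-411-5p (1.86) and miR-381-3p (1.65), rose with log2 fold changes as given in brackets. The highest fitted change, 5.39, belonged to miR-341-3p, for which the D0 libraries held only 0, 4, 6 and 1 counts and the D7 libraries 153, 105, 182 and 50, so its size rests on few D0 counts.

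Positions of 41 tested members with a single RefSeq locus spanned 180.0 kb of chromosome 12, and 39 of them rose. The 8 tested miRNAs of the Rtl1-antisense group (miR-337 to miR-136, within 9.57 kb) had a median log2 change of 2.22, and the 29 of the 3′ cluster (miR-379 to miR-410, within 34.7 kb) one of 2.23, and miRNAs of both rose. Among the 328 tested miRNAs with 1 RefSeq locus, groups of at least 3 that lie within 10 kb of each other were taken. miRNAs with more than 1 locus, such as miR-199a-3p, were left out of this grouping. Of these groups, 4 had more than 1 miRNA that rose. They were the 2 above, the miR-296 and miR-298 genes on chromosome 2 (3 of 3) and miR-34b and miR-34c on chromosome 9 (3 of 3). In the chromosome 2 group, 1 of the 3 reached 2.79 CPM in every D0 library. Of the 4 tested arms of miR-34b and miR-34c, 1 did so, miR-34c-5p, which has no RefSeq position and is not among the 3 on chromosome 9. The others of these last 2 groups could pass the filter through later days alone. The same holds for the Dlk1-Dio3 miRNAs outside the 20 of 43 that reached 2.79 CPM in every D0 library. The counts and medians of the 2 chromosome 12 groups include such miRNAs.

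**Figure D2:**
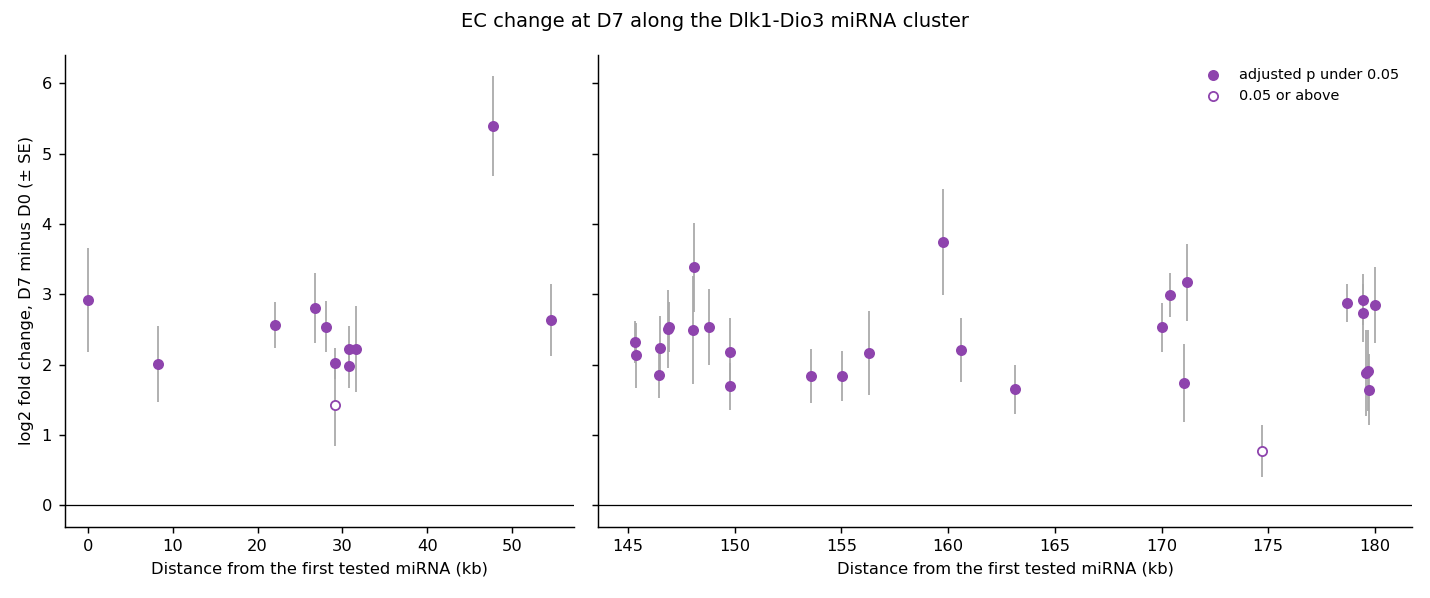
Log2 fold change between D0 and D7 in ECs (± SE) of the 41 positioned Dlk1-Dio3 miRNAs against the distance in kb from the first of them, with the miRNAs of the first 100 kb on the left and the 3′ cluster on the right, drawn at different scales. All 41 estimates are above 0, and the 2 open points, miR-127-5p and miR-154-5p, did not pass the threshold. The 41 include miRNAs that could pass the filter through later days alone.

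Markers of fibroblasts rose in the same libraries. An antisense transcript of Dnm3 that is high in fibroblasts holds a miR-199a and a miR-214 hairpin, and miR-199a-3p has another gene on chromosome 9. miR-199a-3p, miR-199a-5p, miR-214-3p and miR-214-5p all rose (4 of 4, median log2 change 1.56), beside 17.8% of all tested miRNAs. Their sum was 2738, 2155, 3294 and 2224 CPM at D0 and 8493, 8336, 8539 and 5678 CPM at D7. None of the D7 libraries overlapped with D0. miR-199a-3p itself, which has counts identical to those of miR-199b-3p, went from 2102, 1581, 2550.3 and 1654 CPM to 6578, 6042, 6816 and 4298 CPM, a log2 fold change of 1.59 ± 0.34 (SE, adjusted p = 7.00e-04). miR-199b-5p and miR-199a-5p rose alike (1.54 and 1.53), with D0 replicate 3 apart from the other D0 libraries for miR-199b-5p.

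Since the Dlk1-Dio3 miRNAs are abundant in FBs, their levels are set side by side on plain library size. RNA input and PCR cycles differed by cell type (50 ng and 16 in ECs, 150 ng and 15 in FBs). Libraries were also prepared in batches per cell type, so differences in level between cell types cannot be told apart from those of preparation. FBs held 10268 to 11018 CPM of the locus at D0 and 17912 to 30985 at D7, and 40835 to 63379.8 and 51034 to 59408 CPM of the fibroblast markers. ECs reached 6.80% of the mean FB level of the locus at D0 and 18.3% at D7, and 4.42% and 17.4% of the mean FB level of the markers. Per 100 counts of the fibroblast markers, the D0 ECs held 28.1 to 32.9 counts of the locus and the D7 ECs 36.0 to 56.7, and the same measure was 16.3 to 27.0 in the D0 FBs and 30.2 to 60.7 in the D7 FBs. The part of fibroblast RNA in the EC result was not tested. In bulk libraries, a larger number of cells of a type and more RNA per cell cannot be told apart.

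**Figure D3:**
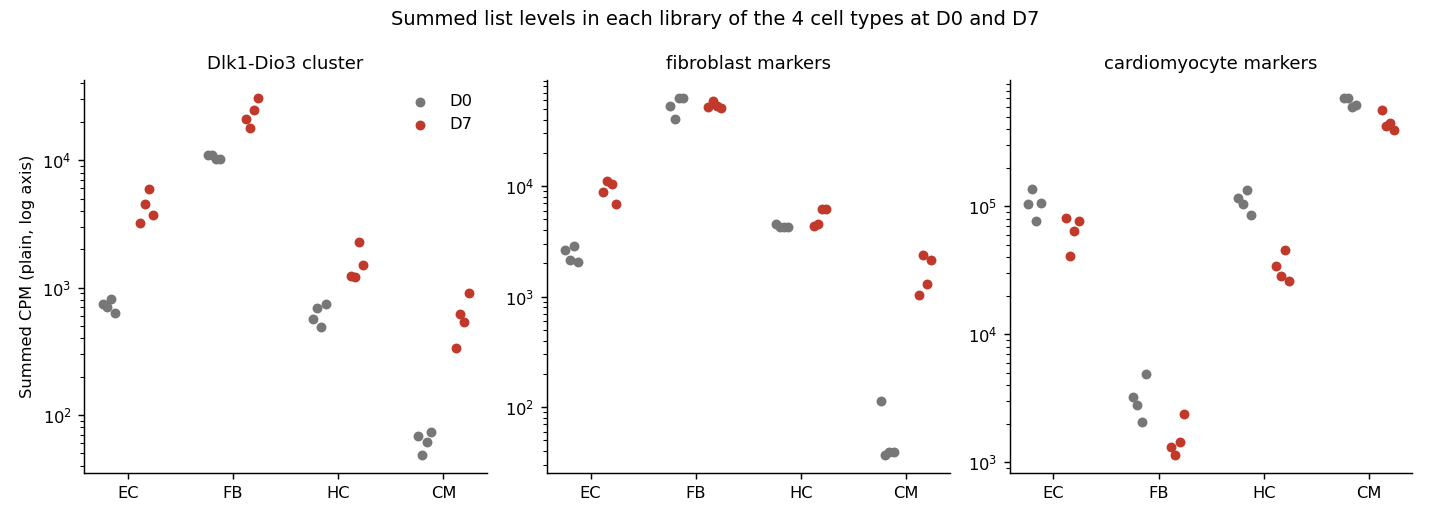
Summed level of 3 lists in each library of ECs, FBs, HCs and CMs at D0 (grey) and D7 (red), in CPM on plain library size and on a log axis. In ECs the Dlk1-Dio3 sum was 633 to 816 CPM at D0 and 3208 to 5922 CPM at D7, and the fibroblast marker sum 2036 to 2865 and 6907 to 11207 CPM, both below the FB libraries of the same day.

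The miR-34 family, whose members are targets of p53 and restrain the cell cycle, split by gene. miR-34b and miR-34c, made from one transcript, rose in the 4 tested mature arms, of which only miR-34c-5p reached 2.79 CPM in every D0 library, whereas miR-34a, made from its own gene, did not pass. miR-34c-5p stood at 23.6, 18.2, 31.2 and 17.6 CPM at D0 and 199, 200.4, 198 and 95.4 CPM at D7. Replicate 4 was the lowest of the D7 libraries and still more than 3 times the highest D0 library. The log2 fold change was 2.92 ± 0.39 (SE, adjusted p = 1.37e-06) for miR-34c-5p and 2.97 ± 0.40 (SE, adjusted p = 1.37e-06) for miR-34b-5p. miR-34a-5p, with the same seed, held 25.7 to 29.0 CPM at D0 and 18.1 to 29.7 CPM at D7, a log2 change of -0.17 ± 0.32 (SE, adjusted p = 0.749). Scaled by library size alone, the sign of miR-34a-5p turned (0.19, adjusted p = 0.734). FBs held more miR-34b and miR-34c than ECs as well (574 to 1141 CPM at D0 and 1482 to 2194 at D7, against 20.9 to 38.2 and 167 to 371 in ECs, on plain library size), and the part of fibroblast RNA was not tested here either.

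Of 10 tested miRNAs known to be induced by inflammation, 8 reached 2.79 CPM in every D0 library, and 1 of these rose, a share near that of all miRNAs that met this condition. miR-21a-5p, an injury-induced miRNA that supports cell survival and fibrosis, rose from 2888, 1857, 2936 and 2448 CPM to 12763, 10260.2, 8068 and 5562 CPM, a log2 fold change of 1.86 ± 0.43 (SE, adjusted p = 0.00166). Its D7 libraries were all above D0 but spread over more than 2 times. Both arms of miR-147 also rose, from at most 16 counts in a D0 library. miR-146a-5p and miR-146b-5p, which dampen Toll-like receptor and NF-κB signalling, did not pass (-0.48 and -0.27), though miR-146a-5p fell when the D28 libraries were left out (adjusted p = 0.0186). miR-210-3p, the classical miRNA of the hypoxia response, stood at 26.1, 21.9, 26.7 and 20.2 CPM at D0 and 43.0, 52.0, 46.2 and 36.8 CPM at D7, with no overlap and a log2 fold change of 0.90 ± 0.25 (SE, adjusted p = 0.00678).

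Other rises at 100 CPM or more were those of miR-1291 (log2 1.55 ± 0.48, SE, adjusted p = 0.0164), miR-3535 (log2 1.17 ± 0.40, SE, adjusted p = 0.0322) and miR-351-5p (log2 0.74 ± 0.25, SE, adjusted p = 0.0315). miR-351 lies beside miR-322 and miR-503 on the X chromosome, and it was the only one of 12 tested miRNAs of that group to pass. All 3 lost the call when single libraries were left out, miR-1291 without D0 replicate 3 or D7 replicate 2, miR-3535 without any of 4 libraries and miR-351-5p without any of 5. In the families of miR-10, miR-99, miR-100 and miR-125, 1 of 13 rose, beside 17.8% of all tested miRNAs. It was miR-125b-1-3p, a passenger strand, from 7.61 to 18.9 CPM to 36.9 to 55.1 CPM (log2 1.74 ± 0.35, SE, adjusted p = 3.29e-04). miR-10a-5p, miR-10b-5p, miR-99a-5p and miR-100-5p had log2 changes from -0.41 to -0.16 and did not pass.

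**Figure D4:**
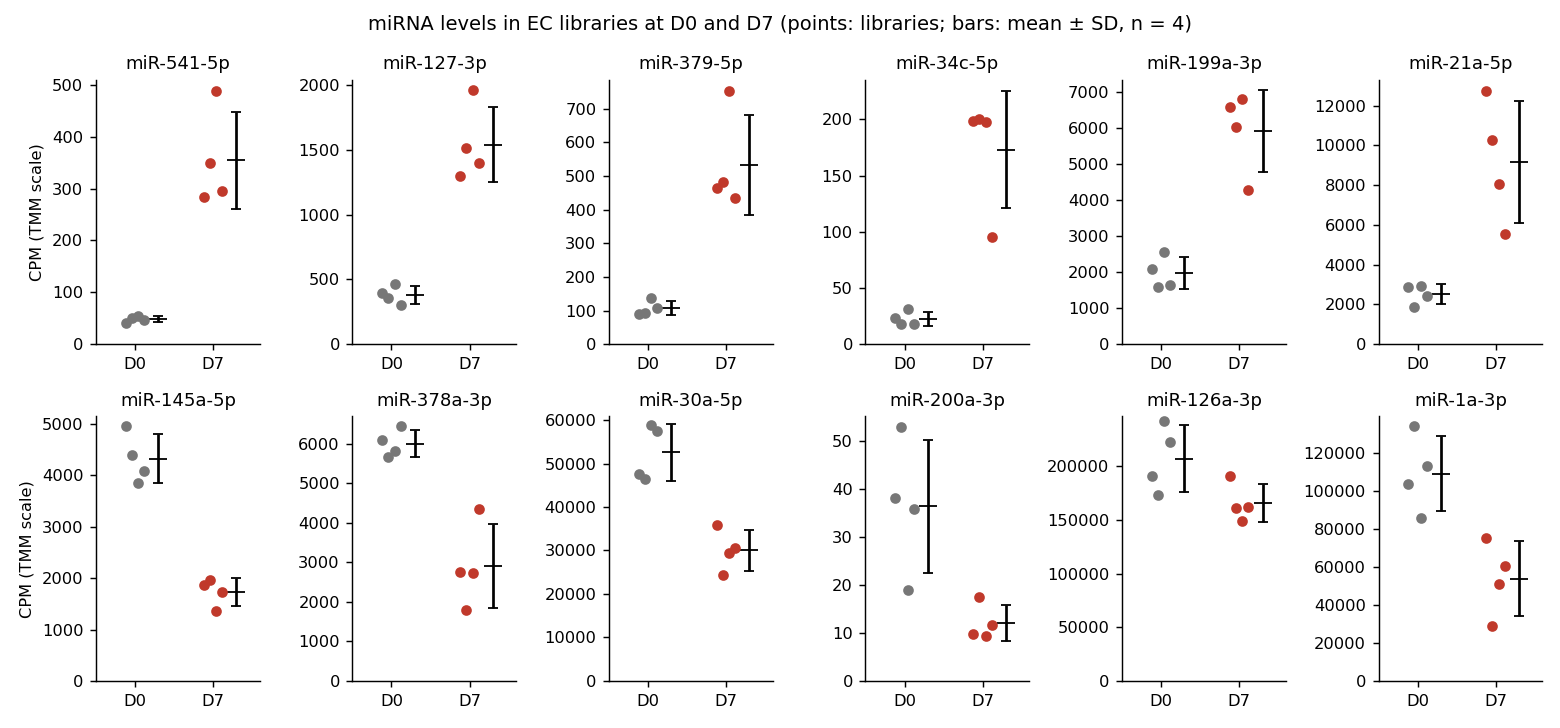
Level of 12 miRNAs in each EC library at D0 (grey) and D7 (red), in CPM on the TMM scale, with mean ± SD (n = 4) beside the points and each axis starting at 0. miR-126a-3p overlaps between the days, and miR-1a-3p does not overlap but has an adjusted p of 0.0548.

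The falls at 100 CPM or more were of less than 3 times and included some of the most abundant miRNAs. The miR-30 family, broadly expressed and known in ECs for control of sprouting through Dll4, had 3 of 11 tested miRNAs lower and none higher (median log2 change -0.39). Of all 421 tested miRNAs, 4.75% were lower. miR-30a-5p stood at 47548, 46369, 58890.3 and 57469 CPM at D0 and 35789, 24400.1, 29366 and 30641 CPM at D7, without overlap. Its log2 fold change was -0.81 ± 0.21 (SE, adjusted p = 0.00488), beside -0.81 for miR-30d-5p and -0.90 for miR-30e-5p. miR-30c-5p, also with the GUAAACA seed, changed by -0.38 and did not pass. None of the miR-30 calls held with library size as the only scaling, where the log2 changes of miR-30a-5p, miR-30d-5p and miR-30e-5p were -0.45, -0.45 and -0.54, and 6 of 11 fell when the D28 libraries were left out.

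All 5 listed miR-378 miRNAs fell, beside 4.75% of all tested miRNAs, with log2 changes from -1.10 to -1.03. miR-378a is encoded within Ppargc1b, a regulator of mitochondrial metabolism. miR-378a-3p held 6098, 5658, 5824 and 6463 CPM at D0 and 2766, 1785, 2729 and 4357 CPM at D7 (log2 -1.05 ± 0.25, SE, adjusted p = 0.00232). miR-378a-3p, miR-378c and miR-378d are close in sequence and their reads can be shared, so they are not independent of each other. With library size as the only scaling, 3 of 5 fell, and miR-378a-5p was close to the threshold in the first place (adjusted p = 0.0499). The family was grouped after its values were seen.

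Markers of mural cells, the pericytes and smooth muscle cells that wrap vessels, had 1 of 4 lower (beside 4.75% of all tested miRNAs). That was miR-145a-5p, known for the contractile state of smooth muscle, which held 4966, 4401, 3849 and 4094 CPM at D0 and 1859, 1969.9, 1358 and 1729.6 CPM at D7 (log2 -1.32 ± 0.29, SE, adjusted p = 7.13e-04) and fell under library size alone as well. miR-143-3p, from the same transcript and more abundant, was 48548 to 67424 CPM at D0 and 27072 to 41979 CPM at D7 with no overlap (log2 -0.82 ± 0.34, SE, adjusted p = 0.086). When the D28 libraries were left out, 4 of 4 fell. The sum of the 4 was 53314 to 72129.7 CPM at D0 and 29238 to 43971 CPM at D7.

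The muscle miRNAs of cardiomyocytes formed a large share of the EC libraries, with a sum of 88098 to 137475 CPM at D0 and 30208 to 77628 CPM at D7. Of 6 tested cardiomyocyte markers 1 fell, beside 4.75% of all tested miRNAs. It was miR-208a-3p, encoded within the myosin gene Myh6, which went from 40.5, 55.2, 27.1 and 51.9 CPM to 28.0, 6.46, 16.8 and 20.9 CPM (log2 -1.27 ± 0.40, SE, adjusted p = 0.019). D7 replicate 1 overlapped with D0 replicate 3. The call was lost with library size as the only scaling (-0.97, adjusted p = 0.0616) and without D0 replicate 2, D0 replicate 4 or D7 replicate 2. miR-1a-3p, the second most abundant miRNA of these libraries, held 103555, 134008, 86047 and 113265 CPM at D0 and 75422, 28746, 50992 and 60430.1 CPM at D7 (log2 -1.02 ± 0.38, SE, adjusted p = 0.0548). It passed when the D28 libraries were left out (-1.04, adjusted p = 0.0134). miR-133a-3p and miR-133b-3p, which differ little in sequence and can share reads, overlapped between the days (-0.32 and -0.35).

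Epithelial markers, of which the miR-200 family is known to hold back epithelial to mesenchymal transition, had 3 of 7 lower and 1 higher. Over all tested miRNAs, 4.75% were lower and 17.8% higher. miR-200a-3p held 38.1, 53.0, 18.9 and 35.8 CPM at D0 and 9.77, 17.6, 9.46 and 11.7 CPM at D7 (log2 -1.58 ± 0.33, SE, adjusted p = 5.92e-04), and miR-200b-3p, from the same cluster on chromosome 4, fell from 18.8 to 48.7 CPM to 9.39 to 18.4 CPM (adjusted p = 0.0164). miR-141-3p, which has the seed of miR-200a-3p but lies elsewhere in the genome, fell to about the same extent (log2 -1.24 ± 0.33, SE, adjusted p = 0.00552). miR-200c-3p and miR-429-3p did not pass (-0.81 and -1.13). Of the 3 falls, only that of miR-200a-3p kept its call under library size alone. The call of miR-200b-3p was also lost without D0 replicate 2 or D7 replicate 1, and that of miR-141-3p without D0 replicate 2. miR-205-5p was the marker that rose, at 0, 0, 2 and 0 counts in the D0 libraries and 8, 85, 7 and 3 at D7, and it did not pass without D7 replicate 2.

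miR-126a-3p, the most abundant miRNA, held 191474, 172973, 241881 and 222964 CPM at D0 and 191023, 161314, 149085 and 161831 CPM at D7 and overlapped between the days (log2 -0.32 ± 0.17, SE, adjusted p = 0.191). Its direction depended on the scaling, with 0.05 under library size alone, and it passed when the D28 libraries were left out (-0.32, adjusted p = 0.0302). let-7a-5p and miR-26a-5p, next in abundance to the muscle miRNA, had log2 changes of -0.13 and -0.36 and did not pass. Among markers of other cells, 1 of 5 leukocyte markers rose, a share near the 17.8% of all tested miRNAs. It was miR-223-3p, a myeloid miRNA with only 3, 5, 17 and 1 counts at D0 and 58, 6, 24 and 5 at D7. Its call was lost without any of 5 single libraries and under the replicate block. The sum of the leukocyte markers was 2335 to 2815 CPM at D0 and 1905 to 2608 CPM at D7. It mostly reflects miR-150-5p, which averaged 16468 counts over the 8 libraries, against 84 for miR-142a-3p. miR-142a-3p, a pan-leukocyte marker, was at 5.19 to 18.4 CPM and 6.58 to 18.6 CPM. None of 4 erythroid markers passed, and miR-451a was within 48.2 to 198 CPM at D0 and 80.0 to 324 CPM at D7. miR-122-5p, a hepatocyte miRNA, rose from 222, 155, 144 and 165 CPM to 189.9, 487, 677 and 457 CPM (log2 1.40 ± 0.38, SE, adjusted p = 0.0061), with replicate 1 of D7 inside the D0 range.

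In several families with known roles in ECs, few or no miRNAs passed, beside 17.8% higher and 4.75% lower of all tested miRNAs. None of 15 tested miRNAs of the miR-17-92 cluster and its paralogs passed (median log2 change -0.05), none of 19 of the let-7 family (-0.09), none of 9 of the miR-15 and miR-16 family (-0.33) and none of the 3 from miR-221 and miR-222 (0.42). Of 11 tested miRNAs of the miR-23, miR-27 and miR-24 clusters, miR-24-2-5p fell, from 513 to 695 CPM to 276 to 382 CPM (log2 -0.82 ± 0.22, SE, adjusted p = 0.00547), while miR-27a-3p, miR-27b-3p, miR-24-3p and miR-23a-3p were between -0.42 and 0.00 and did not pass. miR-24-2-5p did not pass with library size as the only scaling (-0.46, adjusted p = 0.174) or with no filter. In the miR-29 family, which targets collagen mRNAs, 1 of 6 fell, miR-29c-5p (adjusted p = 0.0374, D7 below every D0 library), while the abundant miR-29a-3p and miR-29c-3p did not pass (-0.29 and -0.34). In the miR-181 family, 1 of 7 fell, miR-181c-5p (log2 -0.86 ± 0.30, SE, adjusted p = 0.0371), beside -0.45 for miR-181a-5p, which did not pass. Both calls were lost when scaled by library size alone and without most single libraries. Some of these counts moved with the setting. With library size as the only scaling, 3 of the let-7 family and 2 of the miR-15 and miR-16 family rose. When the D28 libraries were left out, 3 of the let-7 family and 2 of miR-221 and miR-222 rose, 3 of the miR-29 family fell, and in the miR-15 and miR-16 family 1 rose and 3 fell. None of the 15 from the miR-17-92 group passed in either setting.

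D7 was also set against the mean of D1, D3, D14 and D28 in the same fit. Both comparisons share the D7 libraries. Here 51 of 421 miRNAs (12.1%) differed, 47 higher (11.2%) and 4 lower (0.95%). Under library size alone the split was 77 higher and 0 lower, and without the D28 libraries 57 higher and 19 lower. Of the 43 tested Dlk1-Dio3 miRNAs, 36 were higher at D7 than on the other days and none lower. Of the 20 present in every D0 library 20 were higher, beside 25 of the 310 miRNAs that met the same condition. The summed level was 691 to 938 CPM at D0, 832 to 921 at D1, 1589 to 2293 at D3, 3054 to 4844 at D7, 1495 to 2109 at D14 and 2085 to 3610.2 at D28. Of the 20 members, 18 had their highest daily mean at D7 and 2 at D28. miR-541-5p was 173 ± 35.9 CPM (SD, n = 4) at D3, 354 ± 93.3 at D7 and 168 ± 27.6 at D14, and differed from the other days by 1.29 ± 0.18 (SE, adjusted p = 1.65e-05).

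For the lists that follow, few or no miRNAs differed at D7 from the other days. miR-34b and miR-34c had a higher sum at D3 (326 to 475 CPM) than at D7 (138 to 283 CPM), and none of their 4 tested arms differed at D7 from the mean of the other days. The fibroblast marker sum was 3885 to 6234 CPM at D3, 5678 to 8539 at D7 and 3420.0 to 9253 at D14, and 1 of the 4 markers, miR-214-3p, was higher at D7 (log2 0.61 ± 0.20, SE, adjusted p = 0.0384). miR-21a-5p did not differ from the other days by this test (log2 0.59 ± 0.32, SE, adjusted p = 0.298), and none of the miR-378 miRNAs did. For the miR-30 family, 1 of 11 was lower at D7, miR-30d-5p (log2 -0.51 ± 0.17, SE, adjusted p = 0.0441), a call that held in 12 of 27 alternatives and was lost without each of 12 single libraries. The 4 lower miRNAs included miR-200a-3p (log2 -1.10 ± 0.28, SE, adjusted p = 0.00616) and miR-141-3p (log2 -1.02 ± 0.28, SE, adjusted p = 0.0117). Under library size alone, miR-30d-5p (-0.20, adjusted p = 0.383), miR-200a-3p (-0.74, adjusted p = 0.0681) and miR-141-3p (-0.66, adjusted p = 0.122) did not pass.

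**Figure D5:**
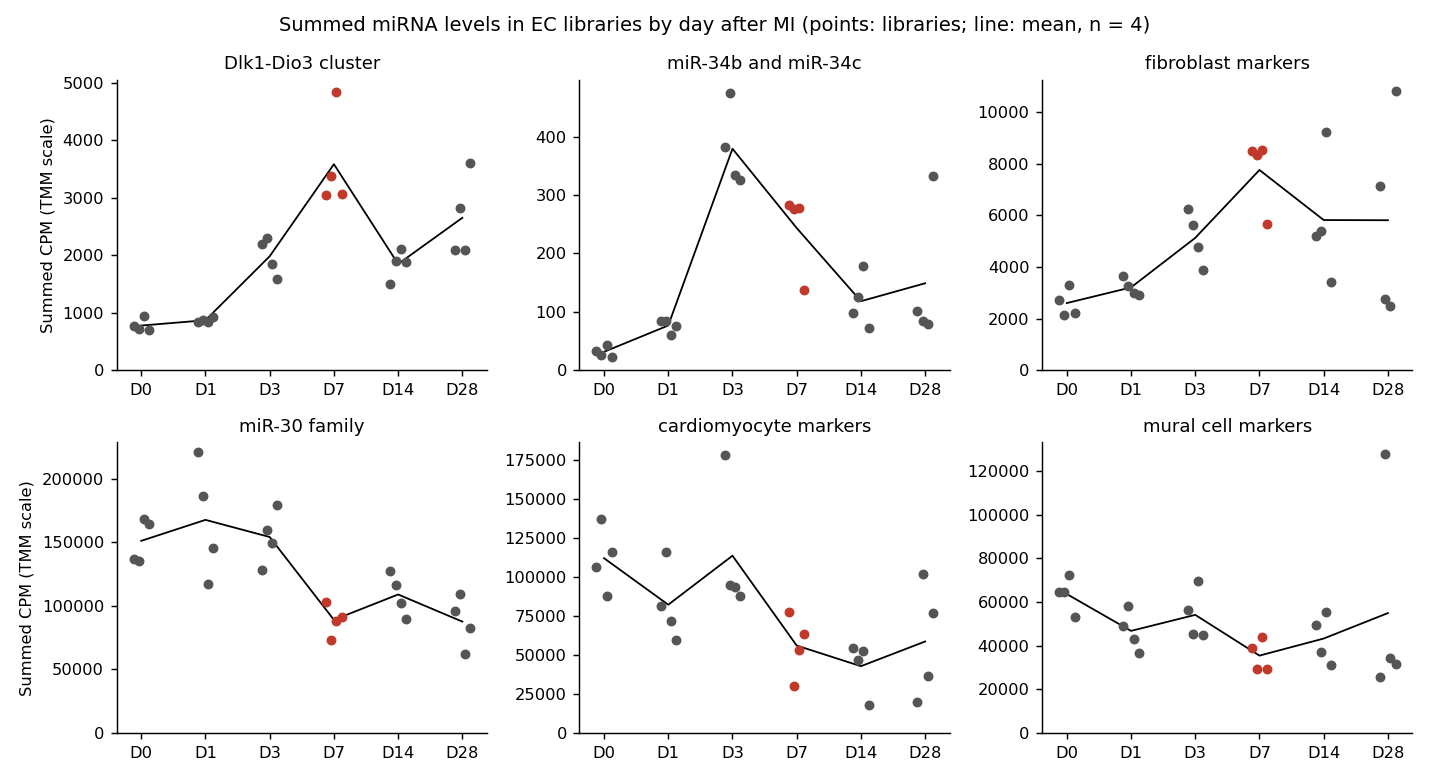
Summed level of 6 lists in each EC library by day after MI, in CPM on the TMM scale, with D7 in red and a line through the daily means (n = 4). The Dlk1-Dio3 sum has its highest mean at D7, miR-34b and miR-34c at D3, the D28 libraries are the most spread in the fibroblast and mural panels, and the D3 libraries in the cardiomyocyte panel.

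Whether the D7 change differed between ECs and the other cell types was tested over all 96 libraries as the EC change minus the mean change of CMs, FBs and HCs. All 96 libraries were kept, although the study left out 1 replicate each of the D28 ECs, D0 HCs and D0 FBs without naming it, and replicate 3 of the D0 HCs held only 18286 counts. The cell types of a day came from the same animals, which this fit does not use. A fit with the replicate number within each day as a block, added after seeing the data, gave 121 calls. Of 712 miRNAs, 117 (16.4%) differed, 60 with a higher change in ECs (8.43%) and 57 with a lower one (8.01%). Under library size alone, the median difference moved from -0.08 to -0.45 and the split became 22 higher and 126 lower. For the Dlk1-Dio3 list, 8 of 67 tested here had a higher change in ECs and none a lower one, a share near that of all miRNAs. miR-541-5p was one of the 8, with a difference of 1.47 ± 0.31 (SE, adjusted p = 4.26e-04) and D7 changes of 1.86 in CMs, 1.15 in FBs and 1.28 in HCs. miR-127-3p and miR-379-5p differed too (1.35 ± 0.29, SE, adjusted p = 4.36e-04, and 1.74 ± 0.36, SE, adjusted p = 3.66e-04), while miR-411-5p had an EC change of 1.86 and CM, FB and HC changes of 3.87, 0.97 and 0.88 (log2 -0.02 ± 0.31, SE, adjusted p = 1.00).

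Other responses differed from those of the other cells. miR-34a-5p changed less in ECs than elsewhere (log2 -1.32 ± 0.36, SE, adjusted p = 0.00776), with 1.74 in CMs, 0.82 in FBs and 0.95 in HCs. miR-34b-5p and miR-34c-5p rose more (1.24 ± 0.39, SE, adjusted p = 0.019, and 1.02 ± 0.35, SE, adjusted p = 0.0332), but with library size as the only scaling neither passed (0.81, adjusted p = 0.121, and 0.57, adjusted p = 0.222). On the TMM scale these miR-34 differences kept their calls without replicate 3 of the D0 HCs, a library with no miR-34b or miR-34c count. The falls of miR-200a-3p and miR-200b-3p differed from the other cells by -2.40 ± 0.37 (SE, adjusted p = 4.02e-06) for miR-200a-3p, with an adjusted p of 1.10e-04 for miR-200b-3p, and the other cells changed by 0.06 to 1.48. Of 7 epithelial markers 4 had a lower change in ECs, beside 57 of all 712 miRNAs (8.01%). The change of miR-21a-5p was above 0 in all 4 cell types (3.51 in CMs, 1.53 in FBs, 1.74 in HCs), and its difference did not pass (log2 -0.37 ± 0.39, SE, adjusted p = 0.617). Nor did the differences of the fibroblast markers, of which miR-199a-3p changed by 2.72 in CMs, -0.32 in FBs and -0.03 in HCs. miR-3535 and miR-125b-1-3p rose more in ECs (2.02 ± 0.38, SE, adjusted p = 1.10e-04, and 1.98 ± 0.36, SE, adjusted p = 6.55e-05), with changes at or below 0.15 in the other cells.

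The relative use of the 2 arms of a hairpin was compared through the log2 of the 5p count over the 3p count within each library, which does not depend on its scaling. Of 104 hairpins whose arms each averaged 10 counts or more, limma found 0 with a changed ratio between D0 and D7 at an adjusted p under 0.05, 5 at an unadjusted p under 0.05, and a smallest adjusted p of 0.865. The median SE of a difference was 0.50, so a shift of that size in a single hairpin was not detectable. A larger fitted shift, that of miR-296 (-1.45 ± 0.51, SE, limma adjusted p = 0.865), did not pass either. Fitted on the D0 and D7 libraries alone, 2 ratios passed, both lower at D7. In the Dlk1-Dio3 locus, both arms rose for miR-379 (2.32 and 2.13), miR-409 (2.92 and 2.73), miR-411 (1.86 and 2.23) and miR-434 (2.23 and 1.98). For miR-127, the 3p arm rose (2.02) and the 5p arm did not pass (1.42, edgeR adjusted p = 0.0764). The arm ratio of miR-127 did not pass (limma adjusted p = 0.957).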

How the data were processed

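Small RNA libraries of endothelial cells at day 7 and day 0 were compared, with 4 libraries per group and groups taken from the labels. The authors deposited raw counts of reads per mature miRNA. Per the study's methods, reads under 18 nt were removed and the nf-core small RNA workflow was run against miRBase, and the submitters' processing notes name Trim Galore, Bowtie2, SAMtools and mm10. Unmatched reads (48.5 to 71.5% of each library) were left out of library sizes.

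Counts were tested with edgeR 4.0.16 (R 4.3.3) by the quasi-likelihood test with TMM factors over the 24 endothelial libraries, after a filter at 2.79 CPM in at least 4 libraries. P-values were adjusted by Benjamini-Hochberg and called under 0.05. The difference between cell types was fitted over all 96 libraries. Arm ratios (pseudocount 0.5) were tested with limma 3.58.1. DESeq2 1.42.0, other scalings and filters, a replicate block and left-out libraries were alternatives. Scripts were tested on simulated data.

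miRNAs were named by rule: the 10 largest rises and falls at 100 CPM or more without overlap, the 5 most abundant, all markers, and of each family the called members at 10 CPM or more and its 4 most abundant. miR-341-3p, miR-147 and the miR-378 family as a group were singled out after their values were seen. The members and lists were chosen with earlier results of these data known. Sequences and positions are from RefSeq (GRCm38.p6), which matched 355 of the 421 tested miRNAs.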

Additional observations from a re-analysis of the deposited data

Results flagged for a closer look

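Among 50 groups of 4 libraries examined for a single library far from the others, miR-199b-5p stood apart in replicate 3 of the D0 ECs, at 568 CPM, and chance alone marks about 1 in 20 such groups.

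The D7 change of 8 further miRNAs differed between ECs and the mean of CMs, FBs and HCs by the test of the difference (edgeR quasi-likelihood, Benjamini-Hochberg adjustment). For miR-122-5p the difference was 2.47 on the log2 scale (adjusted p = 1.5e-05) and for miR-122b-3p 2.67 (adjusted p = 4.0e-06), with an EC change of 1.40 and 1.42 while FBs changed by -1.13 in both. CMs and HCs held so little miR-122-5p (0 to 2.65 CPM, plain library size) that their direction depended on the scaling. The difference of miR-486b-3p was 2.07 and that of miR-486a-3p 2.03, where ECs changed by 0.10 and 0.05 and the other cells by -2.56 to -1.18. For the miR-17 group the difference was -1.27 for miR-17-5p, -1.53 for miR-19a-3p, -1.37 for miR-19b-3p and -1.27 for miR-106a-5p. Of 41 alternatives, the call held in 23 for miR-17-5p, where the replicate block was among those that ended it, in 41 for miR-19a-3p, 36 for miR-19b-3p and 32 for miR-106a-5p. The fit does not use that the cell types of a day came from the same animals, and with the number within each day as a block, miR-17-5p kept its call (-1.35, adjusted p = 0.0318). None of these 4 passed in ECs between D0 and D7, and their changes in CMs were 3.09 to 3.45.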

How the results depend on the processing

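The count of miRNAs changed between D0 and D7 in ECs (95) was 91 to 114 with DESeq2, library size, RLE factors, no filter, the replicate block or identical miRNAs counted once. It was 146 without the D28 libraries, 151 with the D0 and D7 libraries alone and 152 when these were fitted on the same miRNAs, an alternative added after seeing the data. Leaving out single libraries gave 81 (without D0 replicate 2) to 102. The Dlk1-Dio3 count of 40 rises was 37 to 41 without single libraries and 40 to 47 otherwise. The replicate block gave 91. D0 and D7 hearts came from different mice, so the numbers were not taken to pair the libraries. Same-numbered libraries correlated by 0.01 to 0.23 in their deviations, and those with different numbers by -0.33 to 0.27. D7 against the other days (51) gave 77 with library size, 80 with no filter and 76 without the D28 libraries, 45 with the block, and 40 to 71 without single libraries, the lowest without D7 replicate 1. The difference from the other cell types (117) was 115 with the replicate block, 121 with that block within each day, 108 to 151 over all settings and 88 to 138 without single libraries. Arm ratios (0) gave 4 with no filter and 2 with the D0 and D7 libraries alone, and 0 to 0 without single libraries. No result changed its direction while called. The cause of these moves was not tested. Of the values recomputed for named miRNAs between D0 and D7, 64 lost the call, 73 gained it, 63 without a call turned sign, and 1838 stayed as they were. Depth limited the scarce miRNAs, and 10 of the 43 tested Dlk1-Dio3 miRNAs had a mean under 1 CPM at D0.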

Other observations

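The miRNAs below were chosen after their values were seen. Outside the locus on chromosome 12, miR-182-5p, a member of a cluster known from sensory organs, rose in ECs from 4.03 ± 0.29 CPM at D0 to 40.0 ± 15.8 CPM at D7 (SD, n = 4), a log2 change of 3.30 ± 0.38 (SE, edgeR adjusted p = 2.07e-07). miR-183-5p of the same cluster had 0 to 13 counts at D0 and a mean of 14.6 CPM at D7. On chromosome 2, miR-296-5p, beside the imprinted gene Gnas, rose from 4.57 ± 1.31 CPM to 13.1 ± 2.77 CPM (SD, n = 4), and miR-296-3p and miR-298-5p from the same place rose as well (3.32 and 3.39 on the log2 scale, from few counts). Against the other days after MI, both tested miRNAs of the miR-182 cluster were higher at D7 (median log2 difference 1.46). So were the 3 of miR-296 and miR-298 (1.22), beside 11.2% of all 421 tested miRNAs. Both comparisons share the D7 libraries. In each group only 1 miRNA reached 2.79 CPM in every D0 library, and the others could pass the filter through later days alone.

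miR-224-5p rose from 27.4 ± 4.06 CPM to 84.4 ± 10.6 CPM (SD, n = 4). Its mean was 31.4 CPM at D3, 71.9 at D14 and 108 at D28, so D7 was not its highest day. Both arms of miR-147, known as induced in macrophages by Toll-like receptor signals, were higher at D3 (31.9 and 36.7 CPM) than at D7 (9.94 and 11.3 CPM). miR-187-3p fell from 38.0 ± 4.85 CPM to 19.6 ± 6.26 CPM (SD, n = 4).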
